A study of Mus musculus with 8 samples.

Results

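Genes with hardly any reads in the wild-type hippocampus, but with more in mice lacking Mbd2, were examined by comparing 4 wild-type with 4 Mbd2-/- RNA-seq libraries. A gene was included when its mean normalized count was at most 15 in wild-type and at least 10 in Mbd2-/- libraries and when the ratio of both means, each plus 0.5, was at least 7 to 4. En2, Cox8b, Rik symbols and symbols that start with Snor, Hist or Col were left out. This left 44 of the 19201 genes in the data. The same rule with the genotypes exchanged, the mirror set, chose 63 genes. The genes were therefore selected on the measured difference between the genotypes, and all genotype values below describe that selection and do not test it.

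The control mice were wild-type C57BL/6, and the Mbd2-/- mice carried the deletion on the same background, bred as littermates. All were 10 to 12 weeks old, and the hippocampi of 2 mice were pooled for each library, with males and females balanced between the genotypes, so that the 4 libraries per genotype stand for pools and not for single animals. The deletion is present in every cell from conception and leaves exon 1 of Mbd2 intact. Ribosomal RNA was removed from total RNA and paired ends of 100 bases were read, and a normalized count is the number of reads on a gene divided by a size factor of the library. One read was worth 0.531 to 1.59 normalized counts, so that 10 normalized counts stood for 6.27 to 18.8 reads.

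Mbd2 is a reader of DNA methylation. It binds methylated CpG dinucleotides and brings the NuRD complex, which holds histone deacetylases and a chromatin remodeller, to DNA, and it is classically linked to silencing of methylated promoters, as studied for cytokine genes in T cells and for pancreatic genes in the gut. Genes that are silent in a tissue and gain RNA without this reader are the class that such a role brings to mind, and the mirror set gives the number of genes that the same selection finds in the opposite direction.

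The rule itself set the low wild-type level and the direction of the 44 genes, so neither is a result. With 44 genes chosen as higher and 63 as lower in Mbd2-/- mice, there were 0.698 genes for each mirror gene. The members outnumbered the mirror set in 0 of 24 other settings of the rule. The level was rarely 0. Below the limit of the rule the wild-type means ran from 2.06 to 13.3 normalized counts with a median of 7.03, and 14 of the 44 genes had a wild-type mean of at most 5. Only 2 of the 44 genes had any library at 0, Scarna8 in wild-type replicate 1 and B3gnt4 in Mbd2-/- replicate 3.

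**Figure D1:**
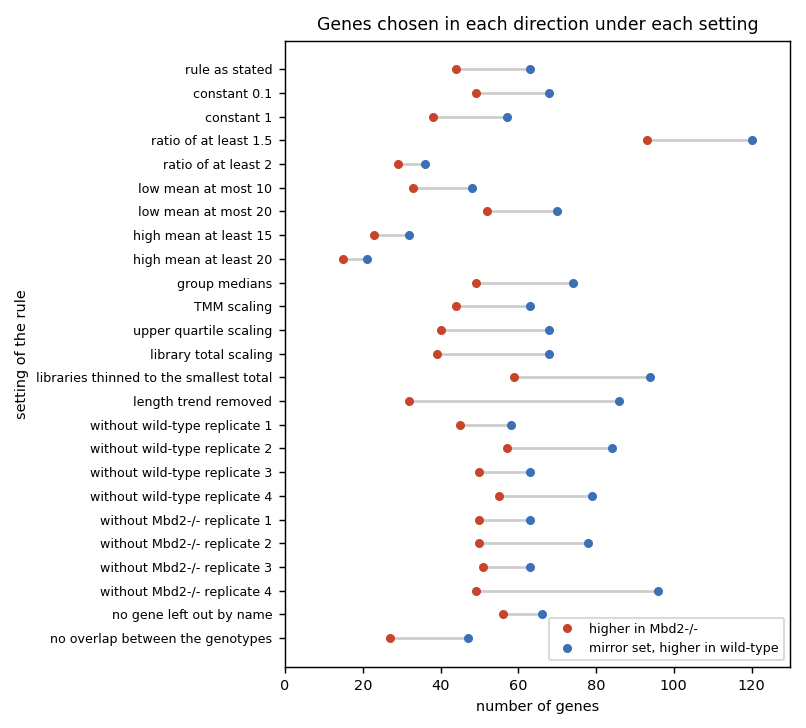
Number of genes (x axis) chosen as higher in Mbd2-/- (red) and as higher in wild-type (blue, mirror set) under the rule as stated and under each other setting (y axis). The red point lies left of the blue point in every row, from 15 against 21 genes to 93 against 120.

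The 2 sets were drawn from 772 genes of like level, those with a mean of at least 10 in one genotype and at most 15 in at least one, after the genes that the rule leaves out by name had been removed. Of these, 344 had a ratio above 1 and 428 a ratio below 1, with a median ratio of Mbd2-/- to wild-type of 0.949. The members made up 5.7% of the 772 genes and the mirror set 8.16%. Removing the trend of fold change with transcript length from each library, which left genes without an annotated length as they were, widened the gap to 32 against 86 genes. With no gene left out by name the counts were 56 and 66, since the rule's exclusions took out 12 genes of the first direction and 3 of the second. Among those 12 were En2 at 71.9 and Cox8b at 64.6 normalized counts in Mbd2-/- libraries, together with 4 genes of small nucleolar RNAs, 2 of histones, 1 of a collagen and 3 Rik symbols.

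**Figure D2:**
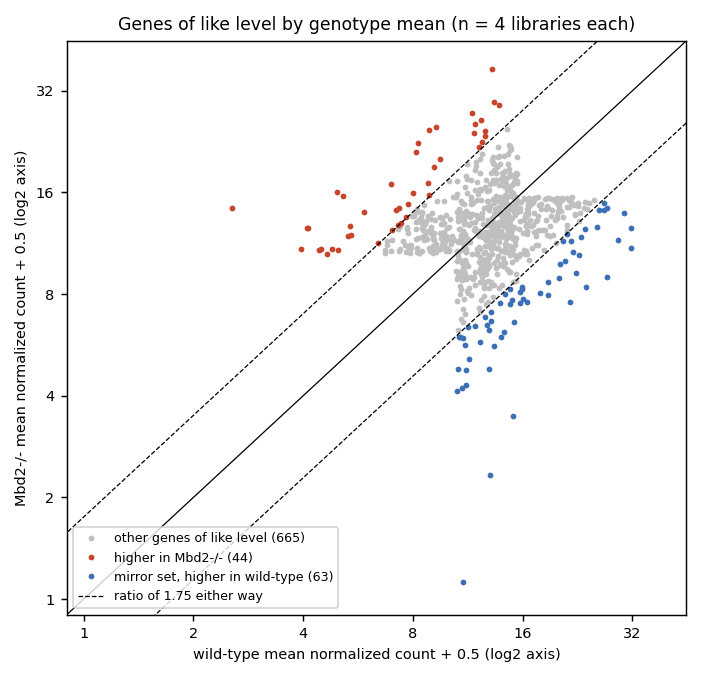
Wild-type mean (x axis) and Mbd2-/- mean (y axis) of the normalized count plus 0.5, both on log2 axes, for the 772 genes of like level (n = 4 libraries per mean). The 44 genes higher in Mbd2-/- (red) lie above the upper dashed line at the ratio threshold and the 63 mirror genes (blue) below the lower one.

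Mbd2 itself, the gene on which the labels can be checked, had normalized counts of 295, 363, 371 and 354 in wild-type replicates 1 to 4 and of 244, 240, 339 and 217 in Mbd2-/- replicates 1 to 4. The mean was 346 ± 34.4 (mean ± SD, n = 4) in wild-type and 260 ± 54.3 (mean ± SD, n = 4) in Mbd2-/- libraries, and Mbd2-/- replicate 3 lay within the wild-type range. In limma, adjusted by Benjamini-Hochberg over the 14504 genes with a mean of at least 10, the log2 fold change was -0.43 (standard error, SE, 0.12, adjusted p = 0.0174), and an exact two-sided permutation test gave p = 0.0571, where 0.0286 is the smallest that 4 against 4 libraries allow. The call was lost without wild-type replicate 3 (adjusted p = 0.0624, limma) and without Mbd2-/- replicate 1 (0.0539) or 2 (0.0576). Counts summed over the gene include the intact exon 1.

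Depth limited single values. The reads on genes ran from 8439570 to 23790825 in wild-type and from 8087750 to 14020765 in Mbd2-/- libraries. The 44 genes had 11 to 64 reads over the 4 wild-type libraries together (median 36.5) and 36 to 129 over the Mbd2-/- libraries (median 52.5), which for the median gene is a counting error of 16.6% and 13.8%. Of the 14504 genes with a mean of at least 10 over all libraries, which were tested with limma, the set held 26, and the other 18 were too low to be tested. Of the 26 tested genes, 20 were called higher at an adjusted p under 0.05 (limma, Benjamini-Hochberg over all tested genes) and 0 lower, where 12.0% of all tested genes were called higher. In the mirror set 32 of 38 tested genes were called lower, where 10.0% of all tested genes were. The rule used this contrast and a low gene passed the filter only through its high genotype, so nothing is read from either share.

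At these low levels most of the spread between libraries of one genotype was of the size of counting error. Over the 14504 genes with a mean of at least 10, pairs of libraries within a genotype differed by 1.92 to 13.9 times what counting gives. These values are means over genes for pairs of libraries, so they are not set against the medians that follow. The variance of the reads between the 4 libraries, divided by that of counting alone, had a median over the 44 genes of 0.711 in wild-type and 1.08 in Mbd2-/- libraries, against 0.891 and 1.02 over the genes of like level. It reached 3 or more in 3 genes among wild-type libraries and in 7 among Mbd2-/- libraries. In 27 of the 44 genes every Mbd2-/- library lay above every wild-type library, as did 5.44% of the genes of like level, and in 47 of the 63 mirror genes every wild-type library lay above, as did 8.29%. Summed over the 44 genes, the normalized counts were 293.8, 360.4, 343.7 and 320.3 in wild-type replicates 1 to 4 and 761.1, 690.4, 811.3 and 776.5 in Mbd2-/- replicates 1 to 4. The sum of the set did not come from a single Mbd2-/- library, though the rule itself chose genes with high means in these libraries. Replicates 1 to 4 were the highest of the Mbd2-/- libraries in 13, 7, 14 and 10 of the genes. With any one library left out, 19 of the 44 genes still met the rule each time, and 30 of the 63 mirror genes did.

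**Figure D3:**
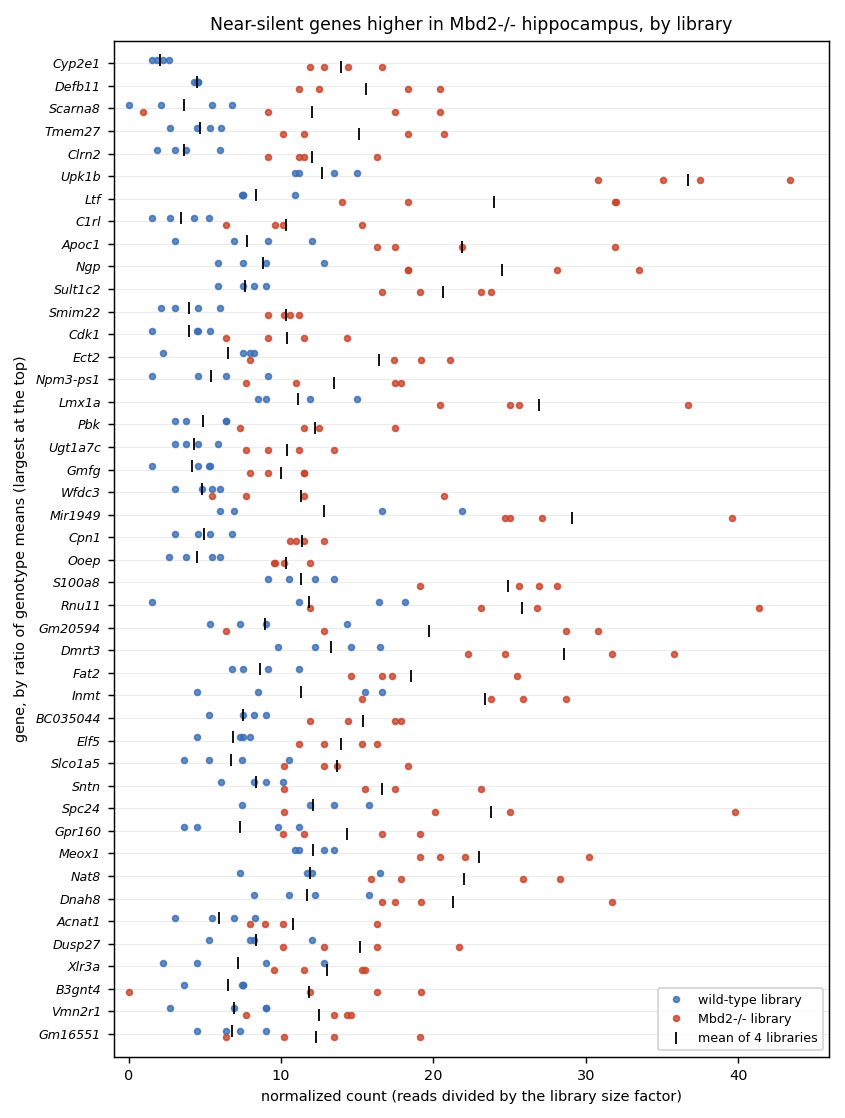
Normalized count (x axis) of each of the 44 genes (y axis, ordered by the ratio of genotype means) in the 4 wild-type (blue) and 4 Mbd2-/- (red) libraries, with black bars at the genotype means. Upk1b lies farthest to the right in Mbd2-/- libraries, between 30.8 and 43.4, while Cyp2e1 at the top has all wild-type libraries between 1.5 and 2.66.

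Markers of neighbouring tissues moved with genotype. Of 20 markers of the choroid plexus, the epithelium that makes cerebrospinal fluid, 20 were called higher, at a median log2 fold change of 0.86. Their summed normalized count was 26100 to 27700 in wild-type and 49400 to 56100 in Mbd2-/- libraries. The 3 with the most reads were Ttr, at 12800 and 32100, Enpp2, at 9640 and 14700, and Igf2, at 1080 and 1450. In a bulk library a change in the number of cells of a type and a change in RNA per cell cannot be told apart. Of 12 thalamus markers 10 were called lower and 0 higher, with sums of 5640 to 5830 and 3870 to 4510. One of the 10, Gbx2, was in the mirror set, so that the rule fixed its direction, and of the other 11 markers 9 were called lower. The markers of the hippocampus itself had sums of 12900 to 13200 and 12500 to 12800, with 2 called higher and 3 lower. None of the choroid plexus and thalamus markers could be among the 44 genes, since all had wild-type means above the limit of 15. The lowest were Steap1 at 28.7 and Gbx2 at 23.3. The part of these tissues in the values of the 44 genes was not tested.

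Promoter sequence was not used by the rule. For 39 of the 44 genes the mm9 genome gave a promoter window of 300 bases, from 250 before to 50 after the annotated 5′ end in GENCODE vM1. The 5 windows below, printed 5′ to 3′ on the strand of the gene with each CG dinucleotide in capitals, show the range from genes with no or few CpG sites to genes with many. Cyp2e1 has the largest ratio of the set and its window is chr7:147949388-147949687 on the plus strand. Defb11 is at chr8:23016835-23017134 and Inmt at chr6:55124988-55125287, both on the minus strand and both without any CG. Spc24 at chr9:21564684-21564983 on the minus strand and Lmx1a at chr1:169619120-169619419 on the plus strand have the highest and a joint second highest number.
Cyp2e1: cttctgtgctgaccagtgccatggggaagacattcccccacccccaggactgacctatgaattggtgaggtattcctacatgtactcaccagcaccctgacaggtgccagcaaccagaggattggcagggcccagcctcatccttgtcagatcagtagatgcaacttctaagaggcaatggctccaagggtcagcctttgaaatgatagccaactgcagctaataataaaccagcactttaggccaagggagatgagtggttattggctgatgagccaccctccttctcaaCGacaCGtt
Defb11: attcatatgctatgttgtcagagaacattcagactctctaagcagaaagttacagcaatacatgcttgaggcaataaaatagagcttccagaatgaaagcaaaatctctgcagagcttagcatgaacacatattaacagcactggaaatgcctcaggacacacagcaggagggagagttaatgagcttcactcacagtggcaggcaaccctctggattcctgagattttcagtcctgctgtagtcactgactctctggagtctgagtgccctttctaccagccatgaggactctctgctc
Inmt: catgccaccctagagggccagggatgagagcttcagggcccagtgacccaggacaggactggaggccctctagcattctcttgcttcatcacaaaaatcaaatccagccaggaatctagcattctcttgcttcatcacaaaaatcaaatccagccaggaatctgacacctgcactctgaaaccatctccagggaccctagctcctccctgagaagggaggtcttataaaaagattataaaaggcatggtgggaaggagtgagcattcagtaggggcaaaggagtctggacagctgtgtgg
Spc24: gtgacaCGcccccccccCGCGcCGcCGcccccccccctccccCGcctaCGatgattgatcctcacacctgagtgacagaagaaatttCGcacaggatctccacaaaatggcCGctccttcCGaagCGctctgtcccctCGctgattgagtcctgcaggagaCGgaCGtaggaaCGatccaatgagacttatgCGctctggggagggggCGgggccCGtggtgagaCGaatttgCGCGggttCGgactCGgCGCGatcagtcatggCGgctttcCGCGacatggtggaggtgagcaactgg
Lmx1a: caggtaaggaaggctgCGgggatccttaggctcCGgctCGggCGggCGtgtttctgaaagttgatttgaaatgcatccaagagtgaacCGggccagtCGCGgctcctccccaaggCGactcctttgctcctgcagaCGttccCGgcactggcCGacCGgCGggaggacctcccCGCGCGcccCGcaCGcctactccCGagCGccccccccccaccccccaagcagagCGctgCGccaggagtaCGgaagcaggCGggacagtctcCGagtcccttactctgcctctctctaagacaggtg

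The windows of Cyp2e1, Defb11 and Inmt held 2, 0 and 0 CG dinucleotides, and those of Spc24 and Lmx1a held 28 and 26. The letters CG, which read the same on both strands, were present in 94.9% of the 39 windows and in 98.4% of the windows of all 17935 genes that had one. The median number was 4 in the 44-gene set, 8 in the mirror set, 8 in the genes of like level and 16 in all genes. In the set, 15 windows (38.5%) had 3 CG or fewer, compared with 21.7% of the mirror set, 24.3% of the genes of like level and 13.4% of all genes. At the other end 7 windows (17.9%) had 15 CG or more, compared with 33.3%, 32.4% and 53.5%. The observed number of CG over that expected from the bases had a median of 0.251 in the set, 0.386 in the mirror set, 0.395 in genes of like level and 0.656 in all genes. The GC content had a median of 50.3%, 56.5%, 55.3% and 58%, in the same order. These are descriptions of the windows, and the methylation of these windows was not analysed here.

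**Figure D4:**
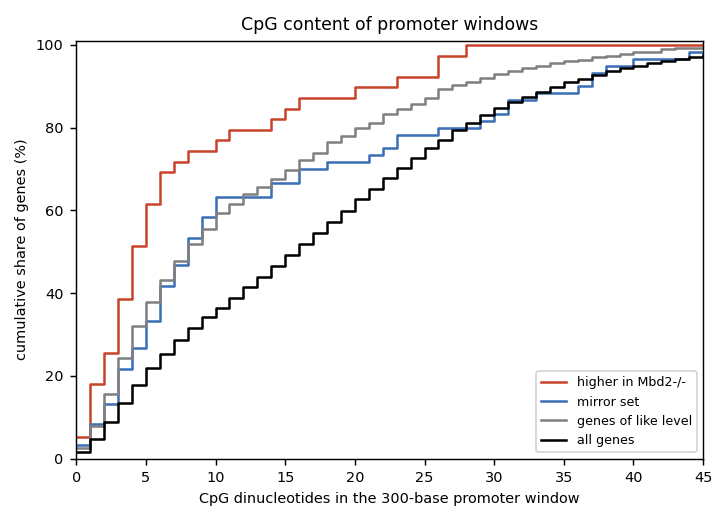
Cumulative share of genes in percent (y axis) by the number of CpG dinucleotides in the 300-base promoter window (x axis), for the genes higher in Mbd2-/- (red), the mirror set (blue), genes of like level (grey) and all genes (black). The red line lies above the others, with 38.5% of its genes at 3 CpG or fewer against 21.7%, 24.3% and 13.4%.

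The windows with the most CG dinucleotides belonged to Spc24, Lmx1a, Gpr160 with 26, Ect2 with 23, Cdk1 with 20, Dnah8 with 16 and Dmrt3 with 15. Those with 1 or 0 belonged to Defb11, Inmt, Acnat1, BC035044, C1rl, Sntn and Tmem27. All 4 cell division genes had 11 or more, while 36.4% of all genes and 59.4% of the genes of like level had 10 or fewer. The longest transcript of the annotated genes had a median of 2182 bases in the set, 2740 in the mirror set, 2406 in the genes of like level and 2844 in all genes. The genes were spread over 16 chromosomes, with 6 on chromosome 6 and 5 on chromosome 9, and the nearest pair, Ltf and Ngp on chromosome 9, was 596 kb apart. Of the annotated genes 4 (10.3%) overlapped a more abundant gene, compared with 16.7% of the mirror set, 20.5% of the genes of like level and 12.4% of all genes.

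The host defence proteins of the set were the neutrophil granule proteins Ltf (lactoferrin, which binds iron) and Ngp, the calprotectin subunit S100a8, the beta-defensin Defb11, the WAP domain protein Wfdc3 and the complement protease relative C1rl. Their ratios ran from 2.15 to 3.25. Of the 4 tested, 4 were called higher, where 12.0% of all tested genes were. In 5 of the 6 the genotypes did not overlap, where 5.44% of the genes of like level lay apart in this direction. The rule chose these genes, and those of the groups below, by this contrast, so nothing is read from such counts. S100a8 had normalized counts of 10.5, 13.5, 9.12 and 12.2 in wild-type and of 28.1, 25.6, 19 and 26.9 in Mbd2-/- replicates 1 to 4. Every Mbd2-/- library was above every wild-type library, and the log2 fold change was 1.07 (SE 0.23, adjusted p = 0.00441, limma with Benjamini-Hochberg adjustment). With the length trend removed it was 0.68 and not called (adjusted p = 0.0855, limma). Ngp had 7.49, 9.03, 12.8 and 5.84 in wild-type and 28.1, 18.3, 33.5 and 18.3 in Mbd2-/- libraries. Here too the genotypes were apart, by a log2 fold change of 1.38 (SE 0.29, adjusted p = 0.00344, limma). Ltf had 7.49, 7.52, 10.9 and 7.44 in wild-type and 14.0, 32.0, 31.9 and 18.3 in Mbd2-/- libraries, and its Mbd2-/- libraries split into a lower and a higher pair. Its log2 fold change was 1.36 (SE 0.30, adjusted p = 0.00441, limma).

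Defb11 had nearly the same value in all wild-type libraries, 4.5, 4.51, 4.56 and 4.25, which stood for 22 reads in all, and 20.4, 18.3, 11.2 and 12.5 in Mbd2-/- libraries. Its log2 fold change of 1.57 (SE 0.31, adjusted p = 0.0024, limma) was the largest among the 26 tested genes of the set. C1rl had means of 3.44 ± 1.66 and 10.3 ± 3.70 (mean ± SD, n = 4 libraries each) and Wfdc3 of 4.81 ± 1.30 and 11.3 ± 6.72, and neither reached the minimum mean for the test. In Wfdc3 the genotypes overlapped, with Mbd2-/- replicate 3 at 20.7 and replicate 2 at 5.49.

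A list of 18 neutrophil granule and surface genes, put together after these values had been seen, showed how far the change went among such genes. Of the 17 in the data, S100a8, Ngp and Ltf were among the 44 genes and Lcn2 was in the mirror set, so that their directions were fixed by the rule. Of the other 13, 4 were tested and 1, S100a9, was called higher and 0 lower, with a median log2 fold change of 0.10 against -0.00 over all tested genes. S100a9, the partner of S100a8, was at 23.9 ± 6.93 in wild-type and 38.8 ± 9.06 in Mbd2-/- libraries (mean ± SD, n = 4), with a log2 fold change of 0.69 and an adjusted p of 0.0359 from limma. Its genotypes overlapped, with Mbd2-/- replicate 4 at 29.8 and wild-type replicate 2 at 33.1. Camp, a granule antimicrobial peptide too low to be tested, had 3.0, 1.5, 2.73 and 2.12 in wild-type and 8.94, 6.4, 11.2 and 6.73 in Mbd2-/- libraries, which did not overlap. Lcn2, another granule protein, belonged to the mirror set, with 20.3 ± 3.43 in wild-type and 9.54 ± 2.88 in Mbd2-/- libraries. The defining surface marker Ly6g was at 0 in all Mbd2-/- libraries and at most 0.912 in wild-type libraries, Elane was at most 1.5 and Ctsg at most 1.83 in any library. The sum of the list was 553 to 608 in wild-type and 604 to 668 in Mbd2-/- libraries, to which the microglial integrin gene Itgam gave 386 and 393. Whether blood cells in the tissue had a part in these values was not tested.

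**Figure D5:**
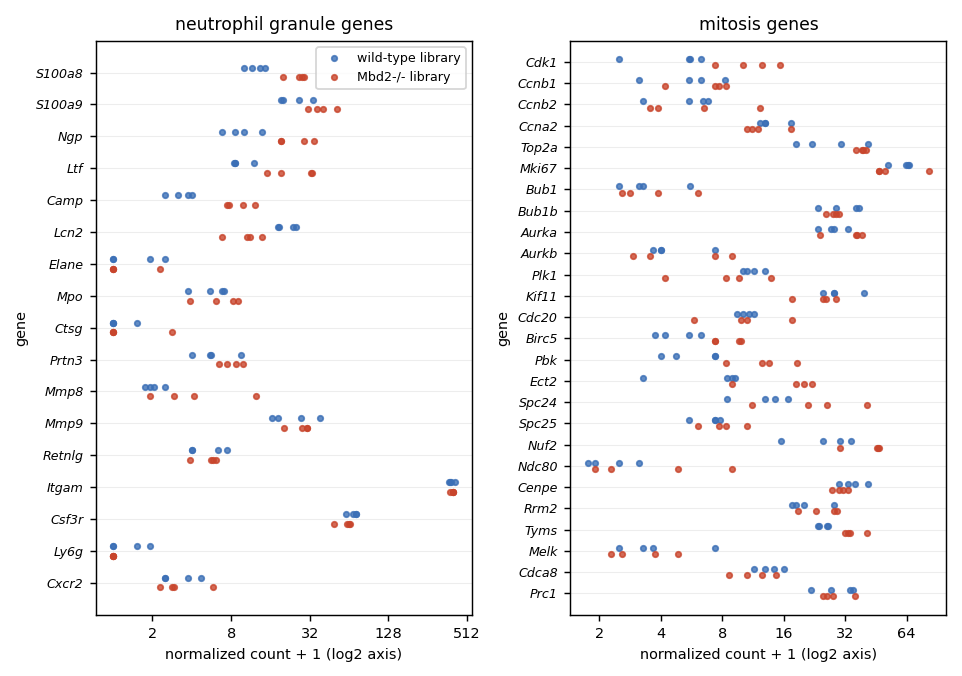
Normalized count plus 1 (x axes, log2) of the neutrophil granule genes (left) and the mitosis genes (right) in 4 wild-type (blue) and 4 Mbd2-/- (red) libraries. S100a8, Ngp and Ltf lie to the right in Mbd2-/- libraries and Lcn2 to the left. S100a9 overlaps between the genotypes, and Ly6g, Elane and Ctsg stay near 0 reads. Mki67 has a mean of 60.6 in wild-type and 55.7 in Mbd2-/- libraries.

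A group of 9 genes held 8 metabolic enzymes and the apolipoprotein Apoc1. Several act on drugs and other small molecules in liver or kidney. Their ratios ran from 1.76 to 5.63, and 4 of the 4 tested were called higher, where 12.0% of all tested genes were. Between the genotypes 5 of the 9 had no overlap, where 5.44% of the genes of like level had none in this direction. The selection used this contrast, so neither count is a result. Cyp2e1, a cytochrome P450 that oxidizes ethanol, had normalized counts of 1.5, 2.26, 1.82 and 2.66 in wild-type and of 16.6, 11.9, 12.8 and 14.4 in Mbd2-/- replicates 1 to 4. The lowest Mbd2-/- library was far above the highest wild-type library, on 11 reads over the wild-type and 49 over the Mbd2-/- libraries. Its mean over all libraries was under the minimum for the test. With no filter on low counts its log2 fold change was 2.29 (SE 0.31, adjusted p = 0.000199, limma with Benjamini-Hochberg adjustment). Of the 18 genes too low to be tested, 12 were called with no filter and 6 were not (Wfdc3, Vmn2r1, Scarna8, Acnat1, Gm16551 and B3gnt4). That fit called 1591 of all 19201 genes higher. The 18 genes were chosen by the same contrast, so nothing is read from the 12.

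Sult1c2, a sulfotransferase, had 7.49, 9.03, 8.2 and 5.84 in wild-type and 16.6, 23.8, 19 and 23.1 in Mbd2-/- libraries. The genotypes did not overlap, and the log2 fold change was 1.32 (SE 0.26, adjusted p = 0.00228, limma). Apoc1, which travels on lipoproteins, had 3.0, 12.0, 9.12 and 6.9 in wild-type and 31.9, 21.9, 17.5 and 16.3 in Mbd2-/- libraries, and the log2 fold change was 1.47 (SE 0.35, adjusted p = 0.00762, limma). Inmt, which methylates indoleamines such as tryptamine, had 4.5, 16.6, 15.5 and 8.5 in wild-type and 15.3, 23.8, 28.7 and 25.9 in Mbd2-/- libraries. Mbd2-/- replicate 1 lay within the wild-type range, and Inmt was called with an adjusted p of 0.0295 in limma. Nat8, an acetyltransferase of kidney and liver, also overlapped between the genotypes, at 11.9 ± 3.76 and 22.0 ± 6.04 (mean ± SD, n = 4 libraries each, adjusted p = 0.0389, limma). The call was lost in 5 of 17 alternatives for Inmt and in 7 of 17 for Nat8, at adjusted p of up to 0.0992 and 0.173 in limma with the length trend removed. It was lost for Inmt without wild-type replicate 1 or 4 or Mbd2-/- replicate 2 or 3, and for Nat8 without wild-type replicate 2, 3 or 4 or Mbd2-/- replicate 1, 2 or 4.

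The other enzymes were too low to be tested. Cpn1, the catalytic subunit of carboxypeptidase N, was at 4.91 ± 1.57 in wild-type and 11.4 ± 0.948 in Mbd2-/- libraries and the conjugating enzyme Ugt1a7c at 4.29 ± 1.22 and 10.4 ± 2.51 (mean ± SD, n = 4), both without overlap. Acnat1, which joins fatty acids to amino acids, was at 5.91 ± 2.26 and 10.8 ± 3.77, and the glycosyltransferase gene B3gnt4 at 6.52 ± 1.92 and 11.8 ± 8.44, both with overlap. With no filter on low counts the log2 fold change of B3gnt4 was 0.17 (SE 0.78, adjusted p = 0.921, limma). Ugt1a7c shares exons with the other Ugt1a genes and Acnat1 has a close copy in Acnat2, so that reads can be divided between such genes. B3gnt4 overlaps Diablo on the opposite strand, which had 212 and 222 normalized counts, and whether the counting separated strands is not given in the sources used here.

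Of the 4 transcription factors in the set, 4 were tested, 4 were called higher and 4 had no overlap between the genotypes. They had ratios from 1.86 to 2.36. Of all tested genes 12.0% were called higher, and 5.44% of the genes of like level did not overlap in this direction. The rule chose the 4 factors by this contrast, so nothing is read from their counts. Lmx1a, a LIM homeodomain factor of the roof plate and the cortical hem, had normalized counts of 8.99, 15, 11.9 and 8.5 in wild-type and of 20.4, 25.6, 36.7 and 25 in Mbd2-/- replicates 1 to 4. All Mbd2-/- libraries were above 20, all wild-type libraries at or under 15, and the log2 fold change was 1.21 (SE 0.26, adjusted p = 0.00368, limma). Dmrt3, a doublesex-related factor of the developing cortex and spinal cord, had 16.5, 9.78, 14.6 and 12.2 in wild-type and 35.8, 24.7, 22.3 and 31.7 in Mbd2-/- libraries, with a log2 fold change of 1.05 (SE 0.24, adjusted p = 0.0053, limma). Meox1, a homeobox factor of somites, had 13.5, 12.8, 10.9 and 11.2 in wild-type and 20.4, 30.2, 19 and 22.1 in Mbd2-/- libraries, with a log2 fold change of 0.86 (SE 0.23, adjusted p = 0.0153, limma). The epithelial ETS factor Elf5 was at 6.82 ± 1.57 and 13.9 ± 2.36 (mean ± SD, n = 4, adjusted p = 0.0305, limma). Meox1 was not called without Mbd2-/- replicate 2 (adjusted p = 0.0643, limma), nor Elf5 without wild-type replicate 1, 3 or 4 or Mbd2-/- replicate 2 (0.0506 to 0.0783).

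Other factors of the roof plate and cortical hem, again listed after the values were seen, did not share one direction. Besides Lmx1a and Dmrt3, whose direction the rule fixed, 9 genes were tested, of which 3 were called higher and 3 lower. The higher ones were Msx1 with a log2 fold change of 0.59, Dmrta2 with 0.36 and Emx2 with 0.35. The lower ones were the zinc finger genes Zic1 with -0.70, Zic2 with -0.37 and Zic4 with -0.73. The relative Lmx1b was at most 1.82 normalized counts in any library.

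The 4 cell division genes were Cdk1, the kinase that drives entry into mitosis, the mitotic kinase Pbk, Ect2, which acts in cytokinesis, and Spc24 of the kinetochore. Their ratios ran from 1.92 to 2.43, and 1 of the 2 tested was called higher, where 12.0% of all tested genes were. Ect2 had normalized counts of 7.49, 2.26, 8.2 and 7.97 in wild-type and of 19.2, 17.4, 7.97 and 21.1 in Mbd2-/- replicates 1 to 4, so that Mbd2-/- replicate 3 fell within the wild-type range. Its log2 fold change was 1.25 (SE 0.39, adjusted p = 0.03, limma), and it was not called without Mbd2-/- replicate 1 or 2 or without wild-type replicate 2 (adjusted p of 0.0833 to 0.0914). Spc24 had 13.5, 15.8, 11.9 and 7.44 in wild-type and 10.2, 20.1, 39.8 and 25 in Mbd2-/- libraries, a spread in which the genotypes overlapped (adjusted p = 0.0993, limma). It was called in edgeR on the reads (adjusted p = 0.0496) and without Mbd2-/- replicate 1 (0.0236, limma).

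Cdk1, at 3.97 ± 1.68 and 10.4 ± 3.39, and Pbk, at 4.88 ± 1.76 and 12.2 ± 4.20 (mean ± SD, n = 4 libraries each), were too low to be tested and did not overlap. In a list of 26 mitosis genes, put together after the values were seen, 22 were not among the 44 and 12 of these were tested. Of the 12, 1 was called higher (the kinetochore gene Nuf2, at 25.2 and 41.3) and 0 lower, with a median log2 fold change of -0.09. In 2 of the 22, Birc5 and Tyms, every Mbd2-/- library lay above every wild-type library, at means of 3.92 and 7.59 for Birc5, which was not tested, and 24.0 and 33.9 for Tyms (adjusted p = 0.0604, limma). The proliferation marker Mki67 was at 60.6 ± 6.47 in wild-type and 55.7 ± 17.4 in Mbd2-/- libraries (adjusted p = 0.562, limma) and Top2a at 27.1 ± 10.3 and 37.6 ± 1.84 (adjusted p = 0.105, limma, mean ± SD, n = 4).

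The membrane and cilium proteins numbered 10, of which 6 were tested, 5 were called higher and 7 had no overlap. The shares were 12.0% called higher of all tested genes and 5.44% without overlap in this direction of the genes of like level. As the rule selected on this contrast, nothing is read from the counts. Upk1b, a uroplakin of the bladder lining, had the highest Mbd2-/- mean of the set, with normalized counts of 13.5, 15, 10.9 and 11.2 in wild-type and of 43.4, 37.5, 35.1 and 30.8 in Mbd2-/- replicates 1 to 4. It lies at chr16:38773297-38800316 of mm9 on the minus strand, its genotypes were well apart, and it had the smallest adjusted p of the 26 tested genes (log2 fold change 1.46, SE 0.21, adjusted p = 0.00025, limma). Tmem27, or collectrin, which acts in amino acid uptake in the kidney, had 4.5, 6.02, 2.73 and 5.31 in wild-type and 11.5, 10.1, 20.7 and 18.3 in Mbd2-/- libraries. Clrn2, a clarin of sensory hair cells, had 6.0, 3.01, 1.82 and 3.72 and then 11.5, 9.15, 11.2 and 16.3. Neither overlapped, and both were below the minimum for the test.

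Among cilium genes, the axonemal dynein Dnah8 was at 11.7 ± 3.2 in wild-type and 21.3 ± 7.05 in Mbd2-/- libraries (mean ± SD, n = 4, adjusted p = 0.0463, limma), and Sntn, which sits at the tip of cilia, at 8.33 ± 1.72 and 16.6 ± 5.31 (mean ± SD, n = 4, adjusted p = 0.0425, limma). The call was lost in 8 of 17 alternatives for Dnah8 and in 8 of 16 for Sntn. For Dnah8 these were no filter (adjusted p = 0.0553, limma), DESeq2 (0.063) and the fits without wild-type replicate 1, 3 or 4 or Mbd2-/- replicate 1, 2 or 4 (up to 0.135). For Sntn they were the removal of the length trend (0.166, limma) and the fits without any one wild-type replicate or without Mbd2-/- replicate 2, 3 or 4 (up to 0.112). In both the lowest Mbd2-/- library was just above the highest wild-type library, at 16.6 against 15.8 for Dnah8 and 10.2 against 10.1 for Sntn. Sntn is also a marker of the ependyma, the ciliated lining of the ventricles, of which 3 of the 9 other tested markers were called higher (Foxj1, Ccdc153 and Rarres2) and 0 lower, with sums, Sntn included, of 621 to 677 in wild-type and 718 to 915 in Mbd2-/- libraries. Its part in the values of the cilium genes was not tested. The organic anion transporter Slco1a5, at 6.71 ± 2.96 and 13.7 ± 3.36, was called with overlap (adjusted p = 0.0442, limma) but not in 5 of 13 alternatives, with the length trend removed or without wild-type replicate 2, 3 or 4 or Mbd2-/- replicate 1 (up to 0.131). The atypical cadherin Fat2, at 8.63 ± 1.95 and 18.5 ± 4.80, was called without overlap (adjusted p = 0.0153, limma, mean ± SD, n = 4). The orphan receptor Gpr160, at 7.27 ± 3.75 and 14.3 ± 4.25, was not called (adjusted p = 0.0642, limma), except without wild-type replicate 4 (0.0483) or Mbd2-/- replicate 4 (0.0339). The small membrane protein Smim22, at 3.92 ± 1.71 and 10.3 ± 0.846, did not overlap and the vomeronasal receptor Vmn2r1, at 6.92 ± 2.96 and 12.5 ± 3.28, did.

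The 7 noncoding, pseudogene or uncharacterized genes included some of the widest spreads between libraries. Rnu11, the U11 RNA of the minor spliceosome, had normalized counts of 1.5, 18.1, 16.4 and 11.2 in wild-type and of 26.8, 11.9, 41.4 and 23.1 in Mbd2-/- replicates 1 to 4. Scarna8, a small Cajal body RNA within Haus6, had 0.0, 6.77, 5.47 and 2.12 in wild-type and 20.4, 9.15, 17.5 and 0.961 in Mbd2-/- libraries. Both overlapped, and in Rnu11 the adjusted p was 0.121 (limma). With no filter Scarna8 had an adjusted p of 0.236 (limma). Mir1949, a microRNA gene, had 6.0, 16.6, 21.9 and 6.9 and then 39.6, 24.7, 27.1 and 25, without overlap (log2 fold change 1.27, adjusted p = 0.0146, limma). It was not called without wild-type replicate 1 or 4 or Mbd2-/- replicate 1 (0.0518 to 0.0596).

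Gm20594 had 12.8, 6.4, 28.7 and 30.8 in Mbd2-/- libraries, of which the lower pair lay within the wild-type range of 5.31 to 14.3, and it was not called (adjusted p = 0.141, limma), except without Mbd2-/- replicate 2 (0.031). BC035044 was called without overlap, at 7.50 ± 1.61 and 15.4 ± 2.83 (mean ± SD, n = 4, adjusted p = 0.0235, limma), but not without Mbd2-/- replicate 1 or 3 or without wild-type replicate 2 (0.0541 to 0.0711). The pseudogene Npm3-ps1 was at 5.38 ± 3.2 and 13.5 ± 5.02 and Gm16551, which overlaps Onecut1 on the same strand, at 6.80 ± 1.89 and 12.3 ± 5.39, both with overlap. Reads of Npm3-ps1 can be shared with Npm3.

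Of the 4 remaining proteins, 0 of the 2 tested were called. Gmfg, of blood cells, at 4.16 ± 1.81 and 10.0 ± 1.77, and the oocyte protein Ooep, at 4.47 ± 1.54 and 10.3 ± 1.09 (mean ± SD, n = 4 libraries each), did not overlap. The phosphatase relative Dusp27, at 8.36 ± 2.76 and 15.2 ± 5.04, and the X-linked gene Xlr3a, at 7.14 ± 4.69 and 13 ± 2.94, did (adjusted p = 0.0822 and 0.0979, limma). Xlr3a has near-identical copies, among which reads can be divided.

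The selection cut through a continuous range. The genes just inside the ratio threshold were Gm16551, Vmn2r1 and B3gnt4, the last with a ratio of 1.76, and those just outside were Cutal at 1.74 and Plek2 and Samsn1 at 1.73. In Cutal and Plek2 the genotypes overlapped, as in the 3 genes just inside, while in Samsn1 they did not (9.54 ± 2.66 and 16.8 ± 3.41, mean ± SD, n = 4). At the other end, 29 of the 44 genes had a ratio of at least 2 and 5 of at least 3, compared with 36 and 4 of the mirror set.

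The mirror set had a median log2 fold change of -1.06 over its tested genes, where the 44-gene set had 1.03 with a range of 0.79 to 1.57. Its 5 largest ratios were those of Rpl31-ps12, St8sia3os, Isl1, Lipg and Crabp2. Rpl31-ps12, a ribosomal protein pseudogene, had 10.5, 12.0, 11.9 and 7.44 in wild-type and 0.0, 0.915, 1.59 and 0.0 in Mbd2-/- libraries, on 50 and 2 reads. St8sia3os, antisense to St8sia3, had 65 reads over the wild-type and 6 over the Mbd2-/- libraries, and Isl1, a LIM homeodomain factor of motor and striatal neurons, had 71 and 11. Lipg, an endothelial lipase, had a log2 fold change of -1.61 (adjusted p = 0.00129, limma) and the retinoic acid binding protein Crabp2, also a marker of the meninges, one of -1.48 (adjusted p = 0.000282, limma).

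Over all tested genes 12.0% were called higher and 10.0% lower. Among markers of other cells, microglia had 5 of 8 called higher and vessels 3 of 11. The meninges, without the mirror gene Crabp2, had 3 higher and 3 lower of 11, and the striatum had 2 and 2 of 11. The 1 red cell marker tested was called lower. Markers of other immune cells had sums of 271 to 295 and 259 to 298, and besides S100a8, whose direction the rule fixed, 1 of 7 tested (S100a9) was called higher. Lyve1 of the same list, too low to be tested, was in the mirror set, at 13.5 in wild-type and 5.48 in Mbd2-/- libraries.

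Gene classes for which DNA methylation is known to matter were searched for in the set. The 44 genes make up 0.229% of all genes in the data, so that lists of this size would hold hardly any by share alone, and nothing is read from a list without members. None of 29 germline genes in the data was among the 44, while Piwil2 was in the mirror set, and of 10 tested 0 were called higher and 1 lower. None of 14 pancreatic exocrine genes was a member, and the 1 that was tested was not called. The 5 T cell cytokine and regulator genes had summed counts of 12.0 to 18 in wild-type and 11.5 to 24.0 in Mbd2-/- libraries, and 0 of them reached the minimum for the test. None of the imprinted genes was a member and Dio3 was in the mirror set. Of the other 37 tested imprinted genes 2 were called higher and 10 lower. The interferon response genes (2 higher and 1 lower of 14), the neuropeptides and hormones (6 and 1 of 18) and the methyl-CpG readers with NuRD subunits (2 and 4 of 19, with the deleted gene Mbd2 among the 4) held no member either.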

How the data were processed

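RNA-seq of 8 hippocampal libraries was analysed. The authors deduplicated the reads and used STAR on mm9 and then DESeq2. The deposited signal is a normalized count (reads per gene over the size factor of the library), in columns named C and K with the replicate number, read here as control and Mbd2-/-. The log2 fold changes, Wald score and p-values deposited by the authors were not used. Reads were recovered as multiples of the smallest value above 0 (100% whole within 0.01 of a read). No molecular identifiers are named for them, so a counting error in percent covers counting only, while SEs and SDs are over libraries.

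The test was limma 3.58.1 (trend, robust) in R 4.3.3 on the log2 of the normalized count plus 1, a scale that understates changes of low genes, for genes whose mean reached 10. A gene was called when its Benjamini-Hochberg adjusted p lay under 0.05. Alternatives used edgeR 4.0.16 and DESeq2 1.42.0 on the recovered reads. Values after ± are SDs over libraries. Symbols were matched to GENCODE vM1 on mm9 for 17938 genes, 1279 of them by synonym.

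The members and lists were chosen with earlier results of these data known. Named genes were Mbd2, the members with the highest Mbd2-/- means (15) or largest ratios (10), those on marker lists, 3 on each side of the ratio threshold, 5 mirror genes, and leading or called genes of marker lists that moved with genotype. The other members, and the genes of the neutrophil, mitosis and roof plate lists, were named after their values were seen. The roof plate list is given without 1 gene that is not reported here.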

Additional observations from a re-analysis of the deposited data

Results flagged for a closer look

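A single library stood apart from the other 3 of its genotype in 5 of 90 groups of 4 libraries, with a gap to its nearest neighbour that took up most of the range (Dixon's criterion at 95%), and chance gives this in about 1 of 20 groups. Ltf was at 10.9 normalized counts in wild-type replicate 3 and at 7.44 to 7.52 in the other wild-type libraries. Mir1949 was at 39.6 in Mbd2-/- replicate 1 and at 24.7 to 27.1 in the others. Ect2 was at 2.26 in wild-type replicate 2 and at 7.49 to 8.2 in the others. Vmn2r1 was at 7.66 in Mbd2-/- replicate 1 and at 13.5 to 14.6 in the others. B3gnt4 was at 3.65 in wild-type replicate 3 and at 7.44 to 7.52 in the others. The cause was not tested in any of them.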

How the results depend on the processing

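The number of genes chosen followed the thresholds. The genes higher in Mbd2-/- and the mirror genes numbered 93 and 120 with a ratio of at least 1.5, 29 and 36 with a ratio of at least 2, 23 and 32 with a high mean of at least 15, and 15 and 21 with at least 20. Without overlap they numbered 27 and 47. This setting and the one with no gene left out by name were chosen after seeing the data. Libraries thinned to the smallest total gave 59 and 94. With 1 library left out in turn they numbered 45 to 57 and 58 to 96, with 96 mirror genes without Mbd2-/- replicate 4. All other settings stayed within 1.5 times the main count.

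Of the members, 20 were called, 31 with no filter (of 44 tested) and 10 in DESeq2, which gave an adjusted p to only 13 of the 26 tested. With 1 library left out 12 to 16 were called, with 13 without Mbd2-/- replicate 1 and 12 without replicate 2. Of the mirror genes 32 were called, 15 in DESeq2 (of 19 with an adjusted p) and 18 to 34 with 1 library left out, with 18, 20, 19 and 21 without wild-type replicates 1 to 4 and 20 without Mbd2-/- replicate 1. Over all genes 1735 were called higher, and 1591 of 19201 with no filter. They numbered 1149 with the length trend removed and 1170 to 2598 with 1 library left out. Called lower were 1450, and 868 to 2558 with 1 left out. The median log2 fold change of the members, whose direction the rule fixed, stayed between 0.86 and 1.12. With the number as a replicate block 20 members and 35 mirror genes were called, and the numbers pair no animals (correlations of deviations -0.10, -0.06, 0.07 and 0.04). Of the 20 called members 9 kept the call in every alternative that tested them and 11 lost it in at least one, namely Sntn and Dnah8 in 8 each, Nat8 in 7, Inmt and Slco1a5 in 5, Elf5 in 4, BC035044, Ect2 and Mir1949 in 3, and Meox1 and S100a8 in 1. Of the 6 tested members that were not called, 3 were called in some alternative, Spc24 and Gpr160 in 2 each and Gm20594 in 1. The sign of the fold change reversed in none of the 29 genes run under the alternatives (the 26 tested members, Mbd2, Lipg and Crabp2). For all of these but Mbd2 the rule had fixed the direction, so nothing is read from the stable sign.

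Few reads limit all of these values, since 1 read more or less in a library moves a gene of this level by 0.531 to 1.59 normalized counts.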
